A study of Mus musculus with 40 samples.

Results

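Macrophage and myeloid cell genes were followed through the gonadal white adipose tissue of adult mice whose mothers, and who themselves after weaning, were fed a high-fat (HF) or a low-fat (LF) diet. The set held 38 listed genes, taken by their symbols in the annotation of the array, with 1 probe a gene, the probe with the highest mean over the 40 arrays. Of these genes, 34 had a named probe and 31 were above background on enough arrays to be tested, among 9797 genes and 14248 probes tested in all. Cd68 (a lysosomal membrane protein of macrophages), Csf1r (the receptor for the growth factor CSF1), Spp1 (osteopontin) and Mpeg1 (perforin-2) had no named probe and were not analysed here.

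All animals were male C57BL/6J mice, killed at 9 weeks of age after a fast. Each gave 1 array. Dams were kept on the HF or LF diet before mating and until weaning at day 21, and the offspring were then given the HF or LF diet. The groups, with the diet of the dam written first, were HH, HL, LH and LL, with 10 animals each, from 12 breeding cages of which 6 held HF fed dams and 6 LF fed dams, and 5 held offspring on both diets. Animals from the same cage are called cage-mates below, since the labels used here name no dam. Cage-mates share a cage and may share a mother. Animals of a group are thus not fully independent, and the p-values below treat them as if they were. Values are array intensities in the units of the scanner software, normalized between arrays by the authors, and differences are on the log2 scale with standard errors.

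Adipose tissue macrophages descend from embryonic precursors and from blood monocytes that enter the tissue, and they clear dead adipocytes, take up lipid and signal to neighbouring cells. Resident macrophages close to vessels are known by Mrc1 (the mannose receptor CD206), Cd163 (the haemoglobin scavenger receptor), Lyve1 (a hyaluronan receptor), Folr2 (a folate receptor) and Timd4 (a phosphatidylserine receptor). Macrophages that gather around lipid-laden or dying adipocytes in obesity are known by Trem2 (a lipid-sensing receptor), Gpnmb (a lysosomal glycoprotein), Cd9 (a tetraspanin), Lgals3 (galectin-3) and Itgax (the integrin CD11c). A whole fat pad was measured, so fewer macrophages and less RNA per macrophage cannot be told apart in any result below.

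The defining macrophage genes were present in the tissue. Adgre1, which encodes F4/80, was measured between 795.2 and 2440.7 units (median 1605.4) in HH, 500.5 and 1800.2 (1134.8) in HL, 844.4 and 2538.7 (1145.6) in LH, and 612.5 and 3027 (1597.6) in LL. C1qb, a chain of the complement recognition protein C1q that tissue macrophages make, ranged over 2145.7 to 6820.8 units in HH, 855.7 to 3829.5 in HL, 2230.7 to 3303 in LH and 1473.4 to 3617.8 in LL. The background of an array, set as the 95th percentile of 1305 probes for olfactory and vomeronasal receptors, lay between 78.06 and 94.28 units. Itgam (CD11b), Itgax and Cybb (the catalytic subunit of the phagocyte oxidase) did not pass the filter. Itgax, a lipid-associated member, had medians of 75, 71, 73.7 and 70.7 units in HH, HL, LH and LL, and these 3 genes were not tested.

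The 4 stretches of sequence below stand for genes on which the results turn, Clec7a as a member called in some of the fits below, C1qb and C1qc as a tightly linked pair, and Ctss as the member that followed an array-wide shift most closely. Each is the promoter window of RefSeq (build GRCm38.p6), 250 bases before and 50 bases after a gene start, written 5′ to 3′ along the strand of the gene. Capitals mark the letters GAGGAA or their reverse complement TTCCTC, the core that PU.1, the transcription factor encoded by Spi1 that macrophages depend on, binds in longer motifs.
Clec7a, chr6:129472730-129473029, minus strand: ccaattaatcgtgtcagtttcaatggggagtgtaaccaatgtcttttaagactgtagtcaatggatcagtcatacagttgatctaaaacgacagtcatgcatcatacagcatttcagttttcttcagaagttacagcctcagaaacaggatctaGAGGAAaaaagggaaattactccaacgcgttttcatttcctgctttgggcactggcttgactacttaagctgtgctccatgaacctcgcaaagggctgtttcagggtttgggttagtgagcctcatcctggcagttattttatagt
C1qb, chr4:136886151-136886450, minus strand: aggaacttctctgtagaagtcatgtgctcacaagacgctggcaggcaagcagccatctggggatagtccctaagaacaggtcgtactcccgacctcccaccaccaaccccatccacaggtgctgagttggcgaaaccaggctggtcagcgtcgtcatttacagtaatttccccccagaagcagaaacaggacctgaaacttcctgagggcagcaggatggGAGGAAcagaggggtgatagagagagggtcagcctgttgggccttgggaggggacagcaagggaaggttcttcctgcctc
C1qc, chr4:136892865-136893164, minus strand: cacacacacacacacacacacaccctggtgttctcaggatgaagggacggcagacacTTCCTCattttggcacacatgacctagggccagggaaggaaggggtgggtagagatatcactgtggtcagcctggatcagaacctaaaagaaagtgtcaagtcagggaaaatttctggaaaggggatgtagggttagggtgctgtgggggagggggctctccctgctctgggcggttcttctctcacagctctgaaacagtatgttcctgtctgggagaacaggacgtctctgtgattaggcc
Ctss, chr3:95526536-95526835, plus strand: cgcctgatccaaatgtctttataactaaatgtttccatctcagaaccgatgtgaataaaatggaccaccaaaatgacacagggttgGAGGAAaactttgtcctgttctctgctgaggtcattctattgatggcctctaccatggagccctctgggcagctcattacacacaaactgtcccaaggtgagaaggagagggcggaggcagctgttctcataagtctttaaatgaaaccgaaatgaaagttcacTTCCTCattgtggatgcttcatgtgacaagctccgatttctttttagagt
Of the 30 member genes with a window in the table, 18 (60%) held these letters on either strand, against 8446 of 27025 genes in all (31.3%). Such a match is a description of the letters and says nothing of binding in these animals.

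The arrays of 5 animals stood apart from the rest over all tested probes, and all were of LF fed offspring. They were animals 2, 6 and 8 of HL and animals 1 and 4 of LL, whose mean correlation with the other arrays was 0.8909, 0.8607, 0.8538, 0.8903 and 0.8271, against a median of 0.9509. Markers of epididymis and seminal vesicle, which lie against this fat pad, summed to 23561 to 189971 units on those 3 HL arrays and to 131627 and 156259 units on those 2 LL arrays. Elsewhere the sum reached at most 77568 in HH, 9462 in HL, 35279 in LH and 1757 in LL. Adipocyte markers summed to 21119 to 27233 units on the 3 HL arrays and to 23331 and 27204 on the 2 LL arrays, and to at least 49624 on every other array. Skeletal muscle markers summed to 86637 units on the array of animal 10 of HH, which did not stand apart. On every other array they reached at most 16626. The part of these tissues in the results was not tested, and the counts and medians of the members below are given with and without the 5 arrays.

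**Figure D1:**
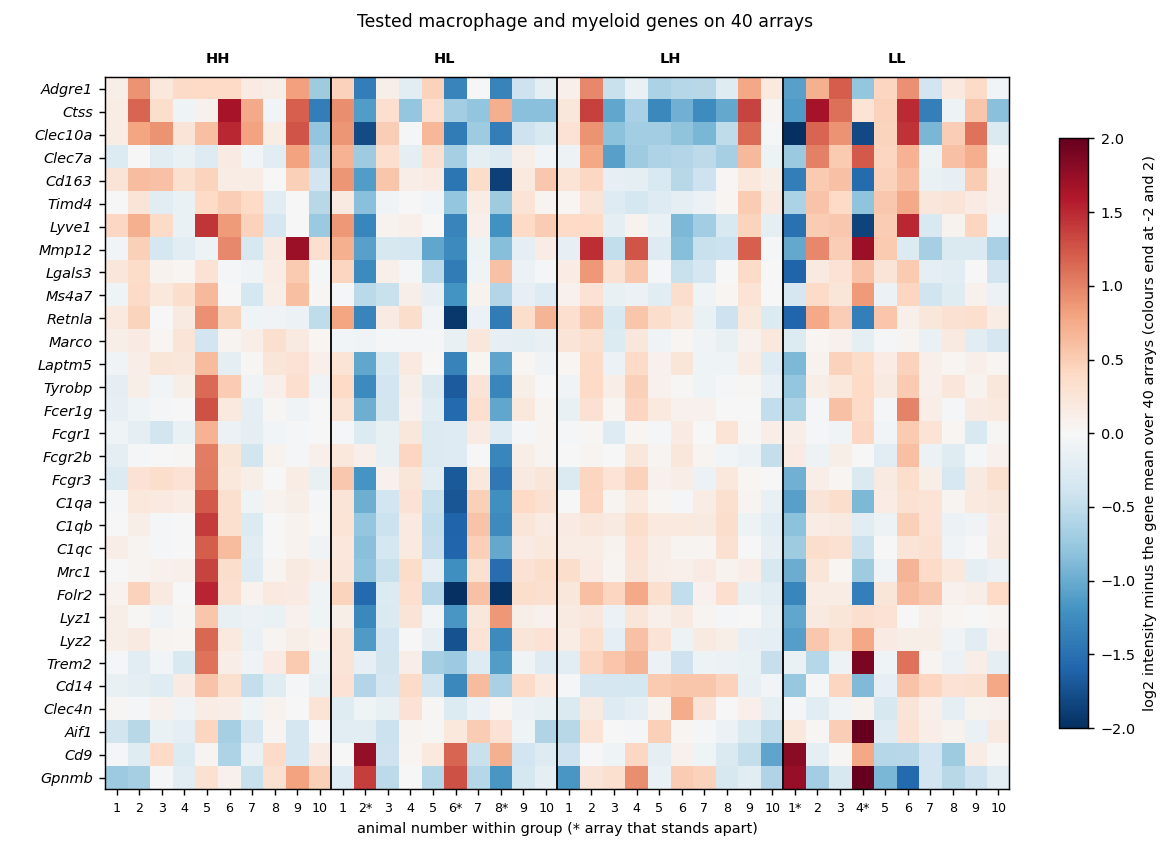
Level of the 31 tested genes (rows) on each of the 40 arrays (columns, grouped as HH, HL, LH and LL), as log2 intensity minus the mean of the gene over all arrays, with colours ending at 2 log2 units either way. Asterisks mark the 5 arrays that stood apart. Of these, animals 2, 6 and 8 of HL and animal 1 of LL are low in most genes, animal 4 of LL is not, and animal 5 of HH is high in most.

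Macrophage genes were mostly higher in HH than in HL animals, though none passed the test. Of 31 genes, 28 had a higher mean in HH, where 55.9% of all tested probes did, with a median log2 difference of 0.44, against 0.02 over all tested probes. No member was called by limma at an adjusted p under 0.05 and 10 were at an unadjusted p, while over all probes 73 of 14248 (0.512%) were called and 16.9% passed unadjusted. Without the 3 HL arrays that stood apart the median was 0.11, with 23 of 31 genes higher (46.3% of all probes), 1 passing unadjusted (11.8%) and none called (1.36%), so that most of the excess in HH rested on those arrays. In every gene the ranges of HH and HL overlapped, and how many of all tested probes do likewise was not counted.

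Among the surface receptors, Clec10a, a galactose-binding lectin, had the largest difference. It was measured at 572.7 to 2797.1 units (median 1605) in HH and at 286.9 to 1826.3 (773.9) in HL, a log2 difference of 0.96 ± 0.34 (adjusted p = 0.20), or 0.48 ± 0.29 (0.57) without the 3 arrays. Adgre1 differed by 0.66 ± 0.25 (0.23), and by 0.25 ± 0.19 (0.67) without them. With a factor for the side of a gap between the remaining arrays, described further on, these 2 genes stood at 0.13 ± 0.23 and 0.04 ± 0.16. Ms4a7, a membrane protein of tissue macrophages, had the smallest adjusted p of the 31, with 405.2 to 811.6 units (579.2) in HH against 226.4 to 561.5 (445.6) in HL, a difference of 0.51 ± 0.15 (0.14). It kept a difference of 0.32 ± 0.13 (0.32) without the 3 arrays.

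The 5 resident genes were all higher in HH by their means, with wide errors. Folr2 differed by 0.74 ± 0.35 (adjusted p = 0.28), Lyve1 by 0.49 ± 0.30 (0.40), Mrc1 by 0.47 ± 0.25 (0.33), Cd163 by 0.42 ± 0.30 (0.46) and Timd4 by 0.22 ± 0.16 (0.47). Without the 3 HL arrays these stood at 0.12 ± 0.20, 0.01 ± 0.24, 0.07 ± 0.18, -0.15 ± 0.14 and -0.03 ± 0.13, and their median was 0.01. Summed over the 5 genes, the level was 4230 to 11512 units in HH and 4878 to 8038 in the other 7 HL animals, against 1747 to 2349 on the 3 HL arrays that stood apart.

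The lipid-associated genes were split. Trem2 had 157.6 to 410.6 units (median 188.9) in HH against 89.8 to 233.1 (162) in HL, a difference of 0.44 ± 0.18 (adjusted p = 0.24). Lgals3 differed by 0.39 ± 0.20, Gpnmb by 0.08 ± 0.28 (0.89), and Cd9 lay lowest of all members at -0.31 ± 0.24. Cd9 and Gpnmb were high, not low, on some arrays that stood apart, and without the 3 HL arrays all 4 tested genes of this subset had higher means in HH, with a median of 0.24. Gpnmb, Trem2, Lgals3 and Cd9 then stood at 0.34 ± 0.19, 0.29 ± 0.17, 0.19 ± 0.11 and 0.11 ± 0.14.

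Complement and Fc receptor genes differed by amounts within their errors once the 3 arrays were left out. C1qa, C1qb and C1qc, the chains of C1q, differed by 0.52 ± 0.26, 0.48 ± 0.26 and 0.47 ± 0.24 over all arrays, and by 0.08 ± 0.17, 0.09 ± 0.20 and 0.11 ± 0.18 without the 3. C1qb had a median of 2590.2 units in HH against 2412.1 in HL, or 2954.7 in the other 7 HL animals, above that of HH. Among the receptors for IgG, the activating Fcgr3 differed by 0.51 ± 0.26, the inhibitory Fcgr2b by 0.19 ± 0.18 and Fcgr1 by 0.04 ± 0.10. Fcer1g, the signalling chain of activating Fc receptors, differed by 0.42 ± 0.23. Without the 3 arrays these lay between -0.04 and 0.04.

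Secreted and lysosomal products showed a wider spread. Mmp12, a macrophage elastase, was measured at 140.8 to 592.6 units (median 188.2) in HH and 74.3 to 294.1 (143) in HL, a difference of 0.70 ± 0.27 (adjusted p = 0.23), or 0.42 ± 0.27 (0.60) without the 3 arrays. Ctss, the lysosomal protease cathepsin S, differed by 0.66 ± 0.34 (0.33) and by 0.62 ± 0.37 (0.56) without them, but by 0.13 ± 0.27 (0.89) with the factor for the gap added. Lyz2, Laptm5, Retnla and Lyz1 differed by 0.55 ± 0.25, 0.49 ± 0.19, 0.39 ± 0.31 and 0.14 ± 0.21, and by 0.11 ± 0.15, 0.14 ± 0.10, -0.17 ± 0.17 and -0.04 ± 0.09 without the 3 arrays. The other receptors, Tyrobp, Marco, Clec4n and Cd14, differed by 0.59 ± 0.25, 0.16 ± 0.07, 0.13 ± 0.07 and 0.09 ± 0.21, and by 0.16 ± 0.16, 0.13 ± 0.08, 0.12 ± 0.07 and -0.21 ± 0.16 without the 3 arrays. At the low end beside Cd9 were Aif1, an actin-binding protein also called Iba1, at -0.16 ± 0.14 and Clec7a at -0.01 ± 0.17, which stood at -0.10 ± 0.16 and -0.22 ± 0.16 without them.

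**Figure D2:**
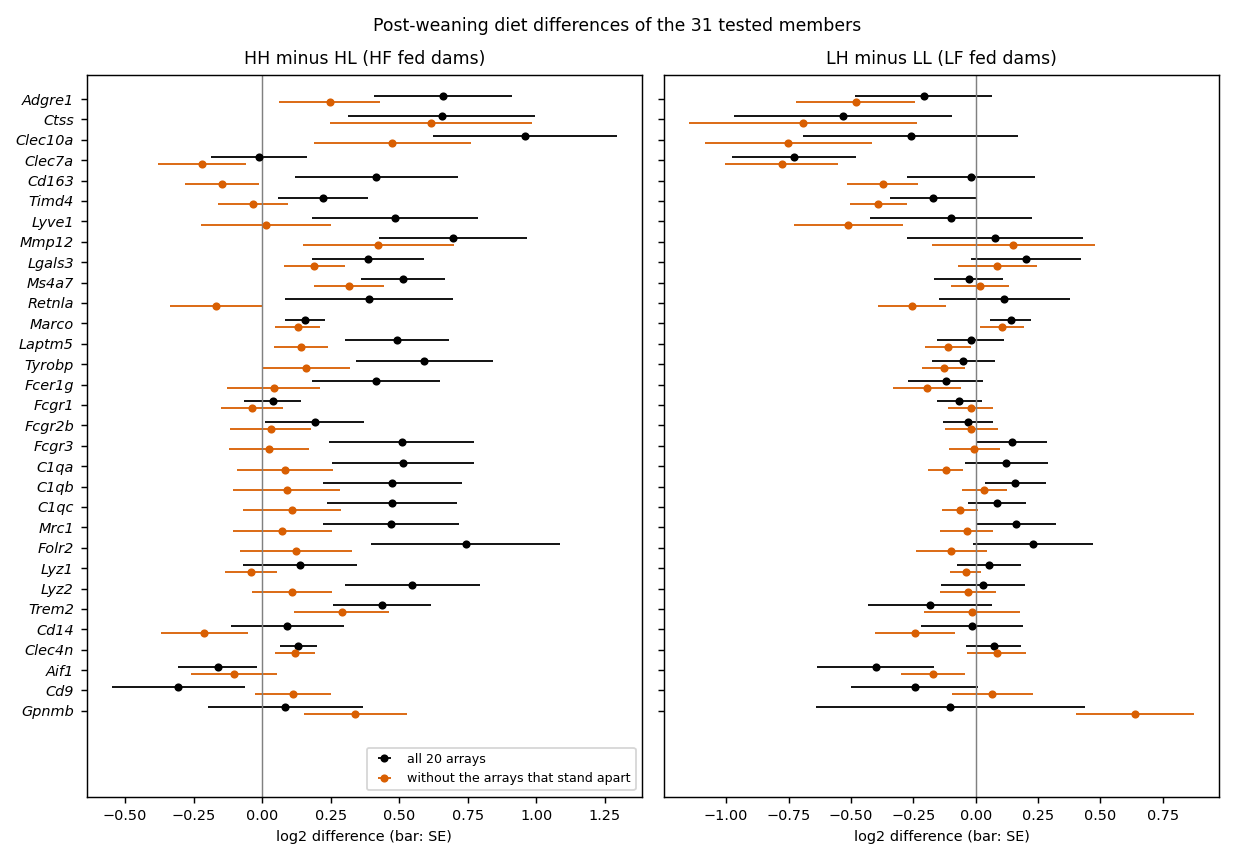
Log2 difference with its standard error for each of the 31 tested genes, HH minus HL on the left and LH minus LL on the right, from all arrays (black) and without the 5 arrays that stood apart (orange). On the left 28 black points lie above 0, and most orange points lie nearer to 0. On the right the points lie on both sides of 0 and Clec7a is lowest in both colours.

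In offspring of LF fed dams the post-weaning diet gave no such excess. Means were higher in LH than in LL in 13 of 31 genes (57.2% of all probes), with a median of -0.02 against 0.03 over all probes. No member was called by limma and 1 passed unadjusted (12.8% of all probes), with 31 probes called in all (0.218%). Clec7a, the beta-glucan receptor Dectin-1, was that gene, at 96.5 to 350.2 units (median 138.1) in LH and 121.1 to 475.2 (298) in LL, a difference of -0.73 ± 0.25 (adjusted p = 0.25). The other genes at the low end were Ctss (-0.53 ± 0.44) and Aif1 (-0.40 ± 0.23), and those at the high end were Folr2 (0.23 ± 0.24), Lgals3 (0.20 ± 0.22) and Mrc1 (0.16 ± 0.16).

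Of the remaining resident genes, Lyve1, Cd163 and Timd4 differed between LH and LL by -0.10 ± 0.33, -0.02 ± 0.26 and -0.17 ± 0.17. Adgre1 differed by -0.21 ± 0.28, Trem2 by -0.18 ± 0.25, Mmp12 by 0.08 ± 0.35 and Gpnmb by -0.10 ± 0.54. Without animals 1 and 4 of LL the median over the 31 genes was -0.06, with 8 higher (54.3% of all probes), 6 passing unadjusted (12.5%) and none called (0.421%). The resident genes then had a median of -0.37, with Timd4 at -0.39 ± 0.12 (adjusted p = 0.17), and Gpnmb stood at 0.64 ± 0.24 (0.28). Adgre1, Trem2 and Mmp12 then differed by -0.48 ± 0.24, -0.01 ± 0.19 and 0.15 ± 0.33. With the factor for the gap as well, Lyve1, Timd4 and Cd163 stood at -0.27 ± 0.18, -0.26 ± 0.09 and -0.20 ± 0.10. Folr2 and Mrc1 stood at -0.16 ± 0.15 and -0.05 ± 0.11 in that fit, Adgre1 at -0.16 ± 0.15 and Gpnmb at 0.42 ± 0.21.

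**Figure D3:**
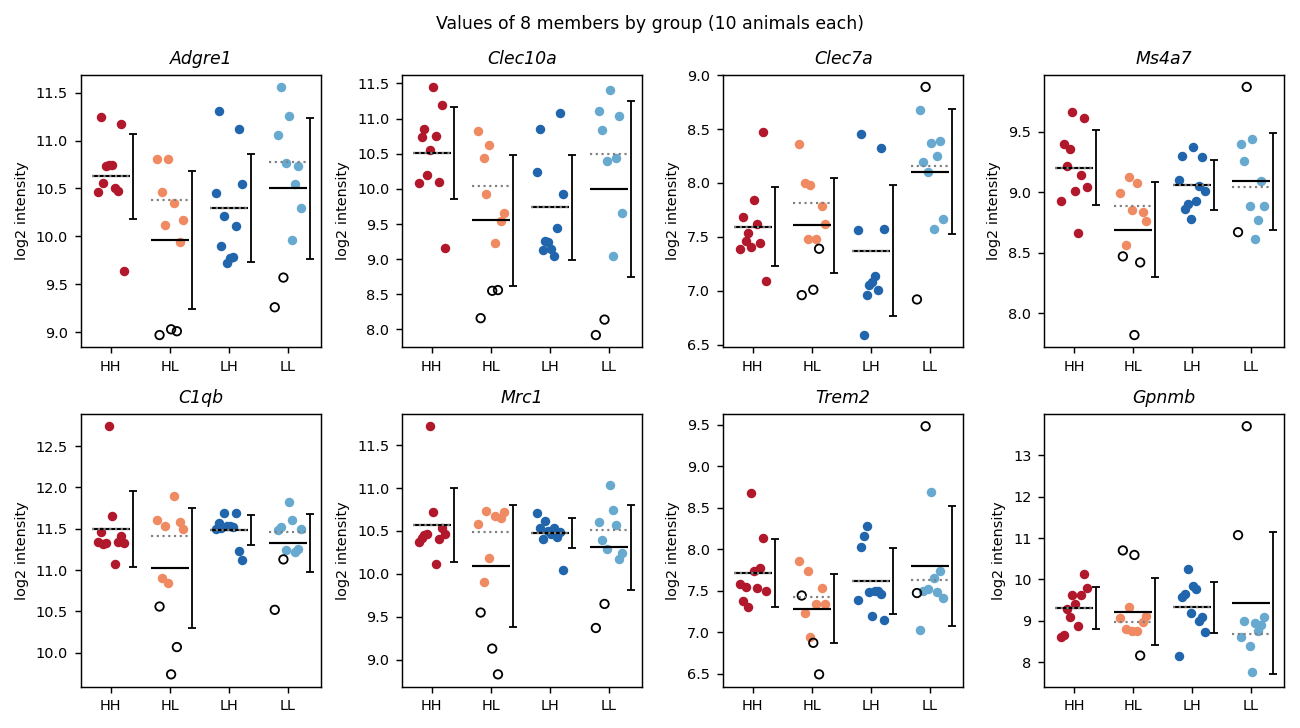
Log2 intensity of 8 genes in each animal of HH, HL, LH and LL. Filled points are arrays and open points the 5 arrays that stood apart, the solid line is the group mean with a bar of 1 SD, and the dotted line is the mean without the open points. Open HL points lie low in Adgre1, Clec10a, C1qb and Mrc1, and 1 open LL point lies far above the others in Gpnmb, at 13299.3 units.

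Across both maternal diets, 26 of 31 genes had higher means in HF fed offspring (59.1% of all probes), with a median of 0.20 (0.03 over all probes), and 9 passed unadjusted (24.3%). None was called by limma, while 768 probes were called in all (5.39%). The highest were Folr2 (0.49 ± 0.22, adjusted p = 0.16), Mmp12 (0.39 ± 0.23) and Clec10a (0.35 ± 0.28), and the lowest were Clec7a (-0.37 ± 0.16, 0.14), Aif1 (-0.28 ± 0.14, 0.21) and Cd9 (-0.28 ± 0.18). Without the 5 arrays the median was 0.01, with 17 of 31 higher (47.8% of all probes), 4 passing unadjusted (13.4%) and none called (2.87%). Clec7a then stood at -0.50 ± 0.15 (adjusted p = 0.054) and Gpnmb at 0.49 ± 0.16 (0.095).

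The lower Clec7a signal was seen on 3 of its 4 probes. On all probes together the 35 remaining arrays gave differences of -0.50 ± 0.15, -0.25 ± 0.06 (adjusted p = 0.0208), -0.22 ± 0.06 (0.0208) and 0.03 ± 0.12 (0.97), from the brightest to the dimmest probe. The 4 values cannot be weighed as separate samples, since the probes share their arrays. Cage-mates on the brightest probe gave an HF minus LF difference over all arrays of -1.67 in cage 4, -0.39 in cage 11, -0.26 in cage 10, 0.07 in cage 23 and 0.23 in cage 20, so that the direction differed between cages. Among the 4 cages that held both diets after the 5 arrays were left out, the HF minus LF difference was -1.45 in cage 4 and -0.39 in cage 11 (LF fed dams), and -0.96 in cage 10 and -0.17 in cage 23 (HF fed dams).

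No member differed between maternal diets at the adjusted threshold. In HF fed offspring 26 of 31 means were higher in HH than in LH (43% of all probes), with a median of 0.09 (-0.02 over all probes), and 2 genes passed unadjusted. limma called no probe of any kind there (0%), though 12.5% of all probes passed unadjusted. Clec10a was highest, at 572.7 to 2797.1 units (median 1605) in HH and 527.9 to 2171.1 (655.3) in LH, a difference of 0.77 ± 0.29 (adjusted p = 0.29). With the factor for the gap it stood at 0.33 ± 0.22. It was followed by Ctss (0.70 ± 0.39, or 0.07 ± 0.27 with that factor) and Lyve1 (0.41 ± 0.23), with Adgre1 at 0.33 ± 0.21 and Cd163 at 0.32 ± 0.13 (0.33). Aif1 (-0.14 ± 0.14), Cd14, a co-receptor for lipopolysaccharide (-0.12 ± 0.15), and Fcgr1, the high-affinity receptor for IgG (-0.08 ± 0.10), were lowest. Folr2, Mrc1, Timd4, Trem2 and Gpnmb lay between -0.02 and 0.10, and Mmp12 at 0.13 ± 0.31. None of the arrays that stood apart is in this comparison, but without animal 5 of HH the median was -0.01, with 13 of 31 higher.

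In LF fed offspring 2 of 31 means were higher in HL than in LL (43.7% of all probes), with a median of -0.31, 4 genes passing unadjusted and no probe called (0%, with 1.08% of all probes passing unadjusted). Adgre1 (-0.54 ± 0.31), Tyrobp, the adaptor DAP12 of Trem2 (-0.53 ± 0.25), and Trem2 (-0.52 ± 0.25) were lowest, and Cd9 (0.20 ± 0.32), the scavenger receptor Marco (0.02 ± 0.07) and Clec4n, the receptor Dectin-2 (-0.06 ± 0.08), were highest. The remaining genes that were followed throughout were Mmp12 (-0.49 ± 0.31), Folr2 (-0.41 ± 0.38), Timd4 (-0.33 ± 0.20), Mrc1 (-0.21 ± 0.26), Gpnmb (-0.20 ± 0.56), Lyve1 (-0.17 ± 0.38) and Cd163 (-0.12 ± 0.37). Without the 5 arrays the median was -0.10, with 6 of 31 higher (52.8% of all probes), 1 passing unadjusted (4.2%) and no probe called (0%). Adgre1, Tyrobp, Trem2 and Cd9 then stood at -0.39 ± 0.21, -0.17 ± 0.11, -0.20 ± 0.19 and 0.10 ± 0.14. With the factor for the gap as well they stood at -0.17 ± 0.15, -0.20 ± 0.11, -0.21 ± 0.21 and 0.11 ± 0.15.

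Whether the post-weaning difference depended on the dam was tested with the interaction of the diets. The difference of HH minus HL exceeded that of LH minus LL in 30 of 31 genes (46.2% of all probes), by a median of 0.39 (-0.02 over all probes), with 7 genes passing unadjusted (4.36% of all probes) and no probe called (0%). Both differences lean on the arrays that stood apart, and without these the median was 0.17, with 28 of 31 above 0 (42.2% of all probes), 3 passing unadjusted (11.9%) and again no probe called (0%). Clec10a (1.22 ± 0.56), Ctss (1.19 ± 0.57) and Adgre1 (0.87 ± 0.38) were highest in the fit of all arrays, and Cd9 (-0.06 ± 0.36), Marco (0.02 ± 0.11) and Clec4n (0.06 ± 0.13) lowest. Without the 5 arrays the highest 3 stood at 1.23 ± 0.46 (adjusted p = 0.39), 1.31 ± 0.62 (0.42) and 0.73 ± 0.32 (0.41). With the factor for the gap as well they stood at 0.37 ± 0.30, 0.15 ± 0.38 and 0.19 ± 0.23, and the median over the members was 0.23 with 27 of 31 above 0 (48.7% of all probes) and no probe called (0%).

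Within groups, body weight at the later of the 2 weighings in the labels was not related to any member at the adjusted threshold. The slope was above 0 in 7 of 31 genes (41.3% of all probes), with a median of -0.05 log2 units per g, 1 gene passing unadjusted (6.23% of all probes) and no probe called (0%). Cd14 had the lowest slope, at -0.11 ± 0.04 per g, followed by Retnla (a secreted product of alternatively activated macrophages) and Mrc1, and Gpnmb had the highest slope at 0.09 ± 0.10. Without the 5 arrays the median slope was -0.01, with 12 of 31 above 0 (48.4% of all probes), 1 passing unadjusted (6.7%) and no probe called (0%).

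A single animal held the highest value of 13 members over all 40 arrays. In animal 5 of HH, from cage 20, 28 of 31 genes lay above their own mean, by a median of 0.62. C1qb was at 6820.8 units there and at most 3223.1 in the other 9 HH animals. Lyz2, the lysozyme of myeloid cells, was at 16029.1 units against at most 8232.5, Mrc1 at 3384 against 1688.8, and Fcer1g, the signalling chain of activating Fc receptors, at 4426.6 against 2088.4. Genes for C1q, Fc receptors, lysozyme, Mrc1 and Folr2 were thus high in it together, and Marco, at 73.8 units, was the lowest of the group. Without it the median of HH minus HL was 0.34, with 28 of 31 higher. Marco alone of the 31 genes was then called over both maternal diets, higher by 0.17 ± 0.05 in HF fed offspring (limma, adjusted p = 0.038). Of all probes 3.3% were called higher in that fit. The animal was left out after its values were seen, and its Marco value lay under the background of its array (84.98 units). It was the lowest HF fed animal in Marco, so leaving it out could only raise that difference, and no conclusion is drawn from the call.

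Animal 4 of LL, from cage 4, differed from the other arrays that stood apart. It had the highest value of 5 members, with Gpnmb at 13299.3 units while the other LL animals without an array standing apart reached 549.6, Aif1 at 1545.1 against 447.2, and Trem2 at 712.6 against 413.5. Its median over the members was only 0.08 above their means, whereas animals 2, 6 and 8 of HL and animal 1 of LL lay at -0.97, -1.29, -1.06 and -0.81. On animal 8 of HL, Lyz1, a lysozyme also made by Paneth cells of the gut, was at 35041 units, the highest of the group, while the intestine markers summed to 19717 units there and to at most 392 on every other array. The part of these tissues in the values was not tested.

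The probes of the members did not move as a single block with groups centred, which changed when the gap described below was taken into account. Over the 35 arrays, with groups centred, the first component of the 14204 tested probes of other genes held 29.1% of their variance. It is called the array-wide axis here. Of the members, 8 had a correlation above 0.5 with it, namely Ctss (0.96), Clec10a (0.93), Clec7a (0.87), Adgre1 (0.86), Cd163 (0.72), Timd4 (0.65), Lyve1 (0.56) and Mmp12 (0.50), and none was below -0.5. Among all tested probes 16% were above 0.5 and 21.5% below -0.5, so the axis is not particular to macrophage genes. The group means on the axis were 0.27 in HH, -0.22 in HL, -0.38 in LH and 0.34 in LL, in SD units.

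**Figure D4:**
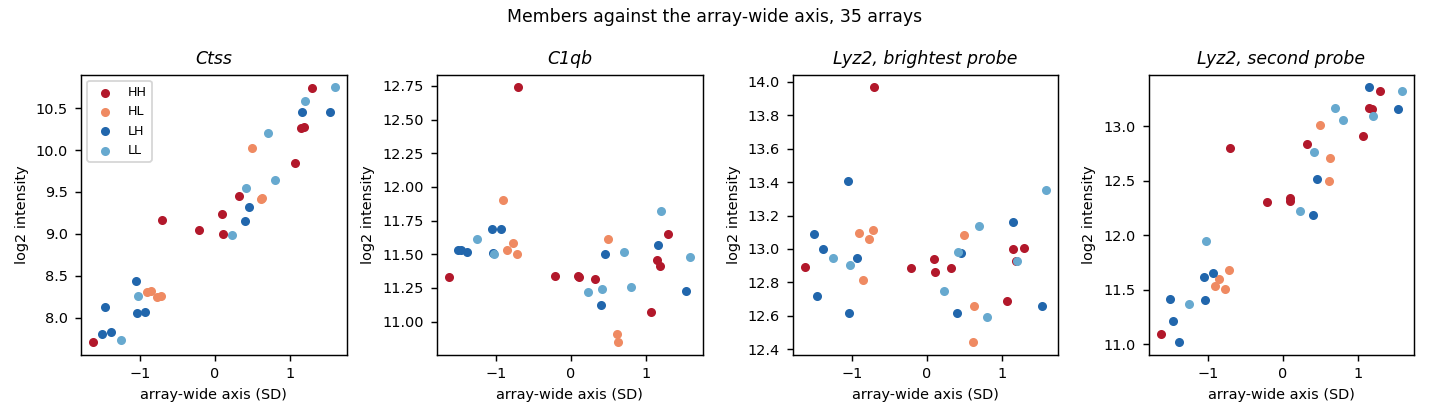
Log2 intensity of Ctss, C1qb and both probes of Lyz2 on 35 arrays against the array-wide axis in SD units, with points coloured by group. Ctss and the dimmer probe of Lyz2 are higher further along the axis, while C1qb and the brighter probe of Lyz2 are not. No array lies between -0.70 and -0.21.

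A gap ran across the axis, with 14 arrays below it and 21 above, and the groups were spread unevenly over it. Below lay 2 of 10 HH, 4 of 7 HL, 6 of 10 LH and 2 of 8 LL animals. Ctss was measured at 208.8 to 577.5 units (median 292.2) on the 14 arrays and at 509.3 to 1725.2 (799.9) on the 21. C1qb did not follow it, with 2577.8 to 6820.8 units (2959.1) on the 14 and 1839.4 to 3617.8 (2585.2) on the 21. The labels used here give neither a chip nor a date for an array, so whether the gap marks a batch was not tested. The groups being unevenly spread over it, the fits were also run with the side of the gap as a factor, a choice made after seeing the data.

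With that factor, and without the arrays that stood apart, Clec7a was lower and Gpnmb higher in HF fed offspring over both maternal diets. Of all probes 2.27% were called lower and 2.21% higher in this fit, and of 31 members 1 each. Clec7a differed by -0.51 ± 0.10 (adjusted p = 0.00107) on its brightest probe, and by -0.25 ± 0.05 (0.0044) and -0.22 ± 0.05 (0.0123) on the next 2. Below the gap it was measured at 136 units in animal 10 and 170.2 in animal 5 of HH, against 178.2 to 220.7 in HL. Animal 10 of HH had the highest sum of skeletal muscle markers (86637 units), and animal 5 held the highest value of 13 members. In LH Clec7a was at 96.5 to 141.2 against 190.2 and 203.3 in LL, with no overlap between the diets. These are 2 to 6 arrays a group, on a split chosen after seeing the data. How many other probes separate likewise was not counted. Above the gap the ranges overlapped, at 168.3 to 355.5 units (median 191.3) in HH against 253.1 to 328.3 (255.2) in HL, and 189.3 to 350.2 (254.8) in LH against 273.5 to 410.5 (316.6) in LL.

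Gpnmb differed by 0.49 ± 0.14 (adjusted p = 0.035) on its brightest probe and by 0.28 ± 0.07 (0.026) on the next. The arrays left out of this fit, all of LF fed animals, held 13299.3 and 2143.8 units in LL and 1661.7, 1546.1 and 285.7 in HL. The highest HF fed animal, in LH, was at 1217.3 units. Over all arrays Gpnmb differed by 0.085 in HH minus HL and by -0.101 in LH minus LL. Its call was thus made only without the arrays that stood apart. Below the gap it was at 788.9 units in animal 5 and 882.4 in animal 10 of HH, the same 2 arrays as above, against 429.3 to 641.8 in HL. In LH it was at 511.1 to 1217.3 (median 838.6) below the gap, against 490.9 and 549.6 in LL. Above it the medians were 585.4 units in HH, 443.5 in HL, 486 in LH and 413.2 in LL, with overlapping ranges. Among cage-mates, without the arrays that stood apart, Gpnmb differed by 1.86 in cage 4, -0.07 in cage 11, -0.46 in cage 10 and 0.26 in cage 23. These are HF minus LF differences. Over all arrays they were -0.01 in cage 4, -0.07 in cage 11, -1.28 in cage 10, -0.35 in cage 23 and 1.14 in cage 20. The direction thus differed between cages, and in cage 23 it depended on the array left out. The interaction with the diet of the dam in this fit was 0.05 ± 0.21 for Clec7a and 0.05 ± 0.30 for Gpnmb (adjusted p = 0.995 for each). The 3 other fits of the 35 arrays, without a factor, with cage as a random block and with the axis as a covariate, gave Gpnmb 0.49, 0.48 and 0.46 (adjusted p = 0.095, 0.12 and 0.058) and Clec7a -0.50, -0.51 and -0.45 (0.054, 0.053 and 0.000143).

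**Figure D5:**
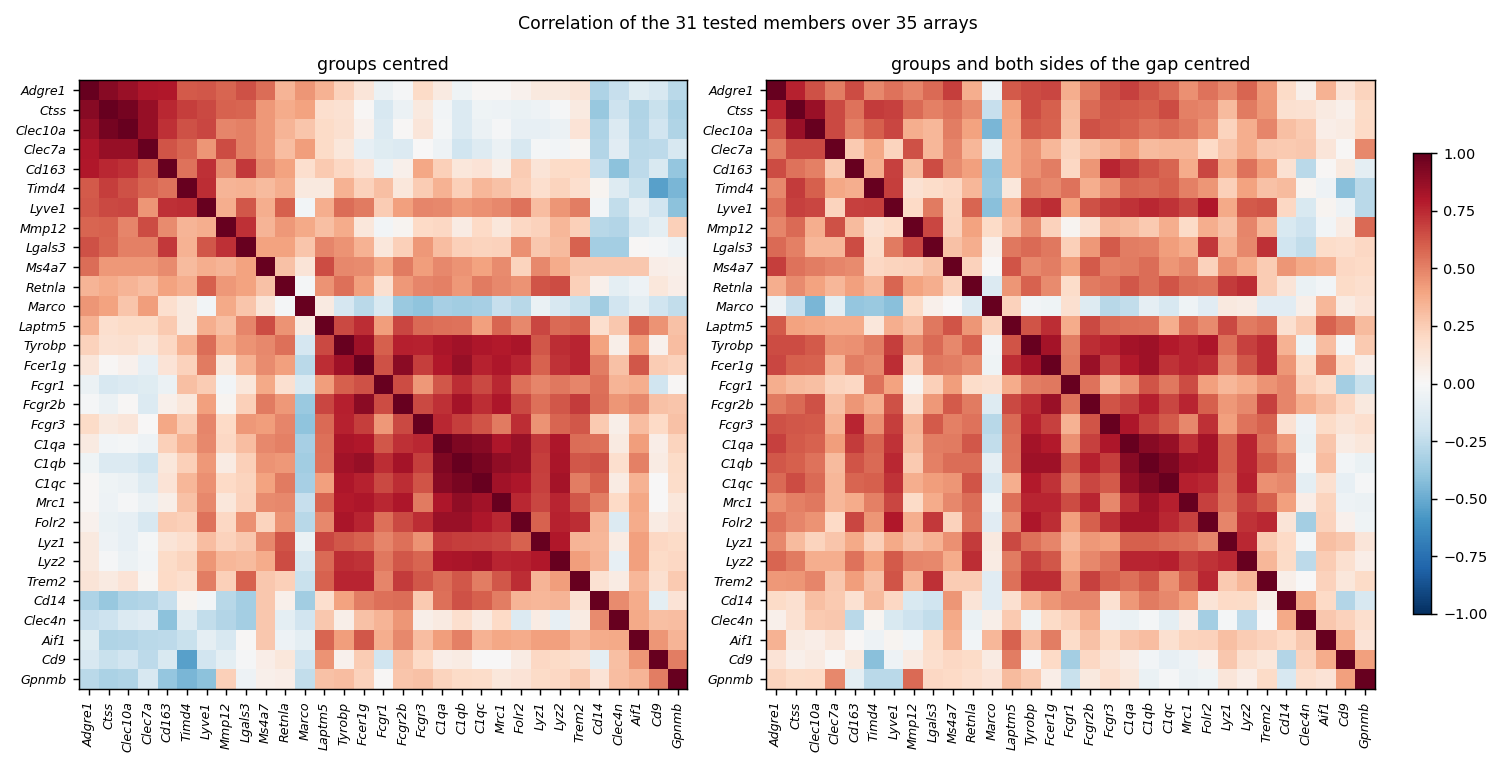
Pearson correlation between each pair of the 31 tested genes over 35 arrays, with the 4 groups centred (left) and with groups and both sides of the gap centred (right). On the left the genes of the axis (upper left) and the C1q, Fc receptor and lysozyme genes (centre) form separate blocks, and on the right the pairs between these blocks are positive as well.

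Correlations between members changed when the gap was taken into account. The sets were chosen after the matrix was seen, so they are given as a description. The 8 genes of the axis and 14 genes for C1q, Fc receptors, lysozyme, Mrc1, Folr2, Trem2, Tyrobp and Laptm5 (a lysosomal membrane protein of leukocytes) had a median correlation of 0.12 over their 112 pairs with groups centred, 79 of them positive. With groups and sides centred the median was 0.47 and all 112 were positive. Inside the C1q set the median stood at 0.70 and 0.66, so this set held together either way.

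Pairs picked from that matrix are given within each side as a description, with groups centred and no test. C1qb and C1qc were linked on both sides, with Pearson's r of 0.989 (Spearman's rho 0.776) on the 14 arrays and 0.871 (0.938) on the 21, and r was 0.923 and 0.893 without the 2 arrays farthest from the median of C1qb. Ctss and C1qb, with a pooled r of -0.139, gave r of 0.569 (rho 0.521) on the 21 arrays, or 0.522 without 2 arrays. On the 14 their r was 0.826 (rho 0.424), which rested on 2 arrays, since it was 0.169 without them. Gpnmb and Cd9, both of the lipid-associated subset, gave r of 0.879 (rho 0.925) on the 14 arrays and 0.283 (0.361) on the 21, or 0.779 and 0.375 without 2 arrays. Ctss and Clec10a gave r of 0.829 (rho 0.653) on the 14 and 0.887 (0.886) on the 21, or 0.464 and 0.874 without 2 arrays. Ctss and Adgre1 gave 0.916 (rho 0.793) and 0.737 (0.761), or 0.747 and 0.839 without 2 arrays. C1qb and Mrc1 gave 0.876 (rho 0.429) on the 14, which was 0.178 without 2 arrays, and 0.832 (0.76) on the 21, or 0.74 without 2 arrays.

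Probes of the same gene did not always move together. The brightest probe of Lyz2 had a correlation of -0.19 with the array-wide axis and the second 0.94, and the pair correlated at 0.03 over the 35 arrays with groups centred. Over the sides the pair gave r of 0.727 (rho 0.473) on the 14 arrays and 0.472 (0.537) on the 21, or 0.234 and 0.396 without 2 arrays. The second probe of Ms4a7 correlated with the axis at 0.87, and the third probe of Adgre1 with its brightest at 0.08. For Clec7a the correlation with the axis was 0.87 on the brightest probe, -0.53 on the second and -0.33 on the third. A member's place on the axis is therefore that of its probe.

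Cage-mates gave the post-weaning difference within a cage, over all 31 genes. The median HF minus LF difference was 1.47 in cage 20 (27 of 31 genes higher), 0.54 in cage 23 (27) and 0.25 in cage 10 (24), all of HF fed dams, and -0.14 in cage 4 (9) and -0.13 in cage 11 (9), of LF fed dams. In the first 3 cages and in cage 4 an array that stood apart was among the LF fed animals, and in cage 20 it was the only LF fed animal. Without those arrays the medians were 0.14 in cage 23 (22 of 31 higher), -0.34 in cage 10 (2), -0.10 in cage 4 (10) and -0.13 in cage 11. These are 1 to 3 animals a diet, and no test was made of them.

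Other genes of macrophage biology were set beside the members. Of 10 tested genes for macrophage growth and transcription factors, all had higher means in HH than in HL (median 0.19), 7 in LH than in LL (0.08), and none was called over both dams. When the 5 arrays were left out, 6 were higher in HH than in HL (0.06) and 5 in LH than in LL (-0.00). Nr1h3, the oxysterol receptor LXR-alpha that controls cholesterol export, came closest at 0.51 ± 0.19 over both dams (adjusted p = 0.091), and Spi1 stood at 0.14 ± 0.06 (0.13), but without the 5 arrays they stood at 0.09 ± 0.09 and 0.05 ± 0.05. Of 14 lysosome and lipid handling genes, 12 had higher means in HH than in HL (0.27), among them Lipa, the lysosomal acid lipase, at 0.51 ± 0.17 (0.18). Without the 3 HL arrays 10 were higher (0.03), with Lipa at 0.25 ± 0.13. Of 6 tested inflammatory genes, Tlr4, the receptor for lipopolysaccharide, was called over both dams at 0.43 ± 0.11 (0.020), and it was not called without the 5 arrays, at 0.19 ± 0.07 (0.14). Adipocyte, endothelial and fibroblast markers had medians of 0.55, 0.61 and 0.47 between HH and HL, as large as the members' 0.44, so the difference there was not one of macrophage genes alone. Without the 3 HL arrays those lists stood at 0.03, 0.22 and 0.23, against the members' 0.11. The 10 pan-leukocyte genes had a median of 0.44, and 0.20 without the 3 HL arrays.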

How the data were processed

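Total RNA of 40 gonadal fat pads was hybridised to Illumina MouseRef-8 v2.0 beadchips, 1 per animal. The authors deposited linear intensities from BeadStudio (version not given in the sources used here), quantile-normalized over the 40 arrays and without background subtraction, and log2 of these was taken. The number of arrays limits the precision. Array medians lay between 98.7 and 99.1 units. Of 25697 probes, 23978 carried 1 gene symbol, 0 several and 1719 none, and 23962 were matched by gene ID.

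A probe was kept when above the 95th percentile of 1305 olfactory and vomeronasal receptor probes on at least 20 arrays, which left 14248 probes (11449 left out, and 3.68% of the receptor probes passed). Groups were compared with limma 3.58.1 in R 4.3.3 (lmFit, eBayes with an intensity trend, two-sided, Benjamini-Hochberg over all kept probes, called at an adjusted p under 0.05). Pairs of groups were fitted on their own 20 arrays, and the interaction, the diet over both dams and the weight slope on all 40. The fitting steps were tested on simulated data. Arrays stood apart when their mean correlation with the others was under 0.9257, which is 3 scaled median absolute deviations below the median.

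Members and lists were chosen with earlier results of these data known. In each comparison the members named were those called, the 3 highest and 3 lowest, and Adgre1, Cd68, Csf1r, Itgax, Trem2, Gpnmb, Mmp12, Mrc1, Cd163, Lyve1, Folr2 and Timd4. Genes of other lists were named where called, or as the 2 with the largest differences. Other genes, such as Ms4a7, and the genes of single arrays were chosen after their values were seen. The same holds for 4 alternatives: leaving out animal 5 of HH, and, without the arrays that stood apart, cage as a random block, the array-wide axis as a covariate and the side of its gap as a factor. The other alternatives changed the scale, filter, probe choice, variance settings, array weights or covariates, took cage as a fixed or random effect or as the unit, fitted all groups in 1 model, or left out a cage or the arrays that stood apart.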

Additional observations from a re-analysis of the deposited data

Results flagged for a closer look

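In 27 of 124 sets of a gene and a group, a single animal lay far from the other 9. Its gap to the nearest on the log2 scale, as a share of the range, exceeded Dixon's 95% critical value. Chance alone gives about 1 in 20, or 6.2 of 124, and members that move together are flagged together. They fell on 17 genes.

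Animal 5 of HH held 12 of them. It was the highest of HH in Tyrobp (1210.9 units, next 783), Mrc1 (3384, next 1688.8), Lyz1 (28251.7, next 20988.1), Lyz2 (16029.1, next 8232.5), Fcgr1 (178.1, next 110.5), Fcgr2b (1738.9, next 1017), Fcgr3 (1040.8, next 644.5), Fcer1g (4426.6, next 2088.4), C1qa (1502.8, next 796.7), C1qb (6820.8, next 3223.1) and Folr2 (2256.1, next 1081.7). It was the lowest in Marco (73.8 units, next 98.2).

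Animal 1 of LL, on an array that stood apart, was the lowest of its group in 7 genes. These were Tyrobp (321.6 units, next 576.4), Lyz1 (9383.1, next 19182.2), Lyz2 (3375.7, next 6188.1), Fcgr3 (258.9, next 405.8), Lgals3 (2511.1, next 5829.4), C1qb (1473.4, next 2248.6) and Laptm5 (2869.3, next 5514.2). Animal 4 of LL, also apart, was the highest in Aif1 (1545.1, next 447.2), and animal 8 of HL, also apart, the lowest in Fcgr2b (345.2, next 706.1).

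The remaining 6 lay on arrays that did not stand apart. Animal 10 of LH was the lowest in Mrc1 (1050.6 units, next 1365) and Fcgr2b (611, next 792.1), animal 6 of LH the highest in Clec4n (180.1, next 129), animal 10 of HH the lowest in Adgre1 (795.2, next 1406.3), animal 7 of HL the highest in Marco (112.6, next 94.8) and animal 6 of LL the highest in Fcgr2b (1296.4, next 957.2). The array of animal 10 of HH also had the highest sum of skeletal muscle markers, 86637 units, and the part of that tissue was not tested.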

How the results depend on the processing

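Over 33 alternative settings, 556 of 6265 member differences had another sign than in the report. With array weights (limma) 1 member was called in LH against LL (Clec7a), 4 in the interaction (Clec7a, Clec10a, Ctss and Adgre1) and 1 over both dams (Clec7a), and the median of HH minus HL was -0.007. Those 4 interactions stood at 0.05, 0.37, 0.15 and 0.19, none of them called, without the 5 arrays and with the side of the gap as a factor. Without the 5 arrays, the array-wide axis as a covariate gave 1 call in LH against LL and 1 over both dams (Clec7a in each), and the side of the gap as a factor 2 over both dams, where Gpnmb stood at 0.494 in place of -0.008. Without animal 5 of HH, 1 member was called over both dams (Marco), where 3.3% of all probes were called higher. The shares of all probes called with array weights and with the axis as a covariate are not given here. Over all settings the called probes reached 297 in LH against LL, 1905 in the interaction and 1966 over both dams. These counts of members are therefore not read as particular to macrophage genes. The median of the interaction was 0.8 with cage as a fixed effect and -0.006 with arrays centred on the pan-leukocyte mean. The causes were not tested.

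Leaving out 1 cage at a time called 0 members in any comparison. The median was 0.23 to 0.54 in HH minus HL (0.23 without cage 20), -0.06 to 0.01 in LH minus LL, -0.01 to 0.12 in HH minus LH, -0.42 to -0.22 in HL minus LL, 0.20 to 0.51 in the interaction, 0.13 to 0.26 over both dams and -0.06 to -0.03 for the weight slope. Over all settings the count of called probes was 2 to 601 in HH against HL, 0 to 297 in LH against LL, 0 to 157 in HH against LH, 0 to 1905 in the interaction, 48 to 1966 over both dams and 0 to 4 for the slope, with 0 throughout in HL against LL. Dim members such as Marco and Fcgr1 lie close to background, where intensity understates a change. No paired analysis was possible because the replicate numbers only follow the order of the samples and pair no animals across groups. Cage-mates on both diets, in 5 cages, were instead compared with cage as a fixed effect.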

Other observations

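Of 105 tested genes of the lists beside the members, 8 were called over both dams, where 5.39% of all probes were. S100a8, a calcium-binding protein of neutrophils and monocytes, was higher in HF fed offspring by 0.88 ± 0.17 (adjusted p = 0.0018), and Mmp9, the gelatinase B of neutrophils, lower by -0.45 ± 0.12 (0.021). The endothelial genes Pecam1 (CD31), Cdh5 (VE-cadherin) and Eng (endoglin) were higher by 0.78 ± 0.16 (0.0024), 0.56 ± 0.15 (0.025) and 0.49 ± 0.14 (0.032), Lep (leptin) by 0.78 ± 0.23 (0.036), the T cell gene Cd2 by 0.32 ± 0.10 (0.049) and Tlr4 by 0.43 ± 0.11 (0.020). Without the 5 arrays that stood apart 3 of the 105 were called (2.87% of all probes), with S100a8 at 0.61 ± 0.15 (0.016), Mmp9 at -0.63 ± 0.11 (0.00047) and Pecam1 at 0.41 ± 0.07 (0.00067). Cdh5, Eng, Lep, Cd2 and Tlr4 then stood at 0.23 ± 0.09, 0.19 ± 0.08, 0.36 ± 0.17, 0.13 ± 0.07 and 0.19 ± 0.07 and were not called. Over all arrays the 6 tested neutrophil genes had a median of -0.08 in HH minus HL, and the 5 tested T and B cell genes -0.12. Both were opposite in sign to the members' 0.44, most of which rested on the 3 HL arrays that stood apart. The medians of these lists without those arrays are not given here, so the opposite sign is not read as particular to macrophage genes. Over the 35 arrays, with groups centred, the genes that followed Ctss most closely were Jak1 and Cd53 (r = 0.968 each), while those that followed C1qb were Apobec1 (0.911) and Unc93b1 (0.886).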
